A study of Mus musculus with 40 samples.

Results

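The suppressor of cytokine signalling genes *Socs1* to *Socs7* and *Cish*, 8 genes in all, were followed among the 27179 genes of a deposited RNA-seq expression table of mouse bone marrow-derived macrophages (BMDMs). The members were the rows whose gene symbol is 1 of the 8 names, and all 8 were found. All 8 also had a mean level above the filter on low values and were among the 13103 genes tested over the 40 libraries. BMDMs came from the marrow of adult male mice of mixed C57BL/6J and 129 background, differentiated with L-cell conditioned medium as the source of M-CSF, and were either wildtype (WT) or total knockouts of the cytoplasmic polyadenylation element binding protein CPEB4 (Cpeb4-/-, labelled CPEB4-KO and called KO here). Cells of 4 WT and 4 KO mice were left untreated (0 hr) or were given 10 ng/ml of lipopolysaccharide (LPS) of E. coli 0111:B4 for 1, 3, 6 or 9 hr, which gives 10 groups of 4 libraries, with 1 library per mouse and time. The labels name 2 batches, each with 2 WT and 2 KO mice, and 6 cages, of which 0 held both genotypes, so that cage and genotype cannot be told apart. On mm10 (GENCODE vM21) *Socs1* lies at chr16:10782240-10785536, *Socs2* at chr10:95385362-95417180 and *Socs3* at chr11:117966079-117970047, all on the minus strand. *Socs4* (chr14:47276931-47296102), *Socs5* (chr17:87107679-87137839), *Socs7* (chr11:97362551-97398542) and *Cish* (chr9:107296026-107302784) are on the plus strand, and *Socs6* is on chromosome 18. A level is the rlog value, the regularized logarithm of the authors' DESeq2 run. It is on a log2 scale, is corrected for library size and is drawn toward the gene's mean where counts are low, so differences of a low gene such as *Socs2* are understated.

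SOCS proteins are feedback inhibitors of cytokine receptors that signal through Janus kinases (JAKs) and STAT transcription factors. Each has a central SH2 domain, which binds phosphorylated tyrosines, and a C-terminal SOCS box, which recruits an elongin and cullin ubiquitin ligase. SOCS1 and SOCS3 also carry a kinase inhibitory region that blocks JAKs directly. SOCS1 limits interferon signalling and SOCS3 limits signalling through gp130, the receptor subunit shared by IL-6 family cytokines. CIS, the product of *Cish*, and SOCS2 are best known downstream of STAT5, SOCS2 in growth hormone signalling. SOCS4 and SOCS5 have been tied to epidermal growth factor receptors, and SOCS6 and SOCS7 to insulin signalling. In macrophages LPS induces several of the family, in part through cytokines and interferon that the cells release.

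The start regions of 3 members that LPS induced are shown because they hold letters that match the STAT or interferon regulatory factor (IRF) motifs through which SOCS genes are classically induced. Sequences are those of RefSeq on GRCm38.p6, the mm10 assembly, read along the transcribed strand, with the motif matches in capitals. The table of start regions, each 300 bases from 250 before to 50 after a start, held 4 of the 8 members, and *Socs2*, *Socs5*, *Socs6* and *Socs7* had no entry. The *Socs1* stretch is the 250 bases just upstream of the gene on the minus strand (chr16:10785537-10785786). The *Socs3* stretch on the minus strand (chr11:117969452-117969616) is upstream of the RefSeq start but inside the span of the gene in GENCODE vM21, where a longer transcript begins farther upstream. Neither stretch overlapped an annotated exon of its own gene. The *Cish* stretch is a site of 30 bases on the plus strand at the RefSeq start (chr9:107296655-107296684), inside an annotated exon of the gene.
Socs1: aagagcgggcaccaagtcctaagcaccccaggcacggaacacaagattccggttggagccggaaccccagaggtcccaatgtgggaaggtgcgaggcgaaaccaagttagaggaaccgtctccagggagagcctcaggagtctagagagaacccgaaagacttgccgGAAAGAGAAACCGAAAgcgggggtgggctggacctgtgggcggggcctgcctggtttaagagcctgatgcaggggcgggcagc
Socs3: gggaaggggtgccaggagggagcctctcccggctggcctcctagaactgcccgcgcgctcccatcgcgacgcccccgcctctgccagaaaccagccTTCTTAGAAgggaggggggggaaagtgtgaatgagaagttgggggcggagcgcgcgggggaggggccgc
Cish: agttTTCCTGGAAagTTCTTGGAAatctgt

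The capitals of *Cish* are a pair of matches to the STAT motif TTCNNNGAA, the first of which begins at the RefSeq start. *Socs3* held 1 match, which begins 154 bases upstream of its RefSeq start. At least 1 match stood in 8.3% of all 32851 start regions, and 0.457% held 2 or more. The capitals of *Socs1* are 2 overlapping matches to the IRF motif (TTTC and TTTC with any 2 bases between) on the opposite strand, beginning 83 and 77 bases upstream. That motif stood in 3.44% of the start regions, and 0.225% held 2 or more. The STAT6 motif (TTC and GAA with 4 bases between, in 6.95% of regions), the NF-kB motif (GGG and TTTCC with 2 bases between, 1.63%) and the AP-1 motif TGANTCA (7.81%) had 0 matches in the windows of *Socs1*, *Socs3*, *Socs4* and *Cish*, and *Socs4* matched none of the 5. Both strands were searched, matches of different motifs could overlap, and a lack of a match says only that these letters are not in these windows.

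All 40 libraries were closest to the libraries of their own time in the other genotype, and replicates of a group correlated at r of 0.992 to 0.998 across genes. *Cpeb4*, the targeted gene, was lower in the KO at 6 hr (9.18 against 10.45, difference −1.27, SE 0.19, limma adjusted p = 0.00114). Its genotype ranges overlapped at the other 4 times, and at 1 hr the KO mean was the higher (9.01 against 8.64). The value sums reads over the whole gene, and the part that the allele lacks is not given in the sources used here. Macrophage markers (10 of 10 tested) ran from 8.89 for the lowest library of *Mertk* to 18.9 for the highest of *Lyz2*. The B cell markers did not exceed 2.10 and erythroid *Hbb-bs* was listed at 0. Of the T cell list only *Cd4* passed the filter, with values from 5.32 to 7.22. Neutrophil markers reached up to 5.00 and dendritic markers up to 4.72. The group means of *Socs2*, from 3.72 to 5.91, lay near these maxima. Even so, 1 dendritic marker was called higher in the KO at 3 hr, where the summed log2 level of that list ran from 4.93 to 5.20 in KO and from 4.17 to 4.34 in WT libraries. *Cd4* was called lower in the KO at 6 hr, with sums of the T cell list from 5.96 to 6.31 against 6.46 to 6.52. The part of these differences in the results on SOCS genes was not tested. In the stromal list *Pdgfrb* reached 9.43 and was higher in the KO at 6 and 9 hr, while the collagens *Col1a1*, *Col1a2* and *Col3a1* did not exceed 4.62. *Pecam1* of the endothelial list reached 6.88.

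LPS induced *Socs1*, *Socs3* and *Cish* by far the most of the 8 genes. Across the 10 group means *Cish* spanned 5.39 log2 units, more than 99.9% of the tested genes, *Socs1* spanned 4.47, more than 99.4%, and *Socs3* spanned 3.87, more than 98.6%. *Socs2* (2.19) and *Socs7* (1.58) spanned more than 88.9% and 77.5% of genes, whereas *Socs4*, *Socs5* and *Socs6* spanned only 0.73 to 0.79. In WT BMDMs 7 of the 8 members passed the test in the first hour, 6 of them upwards, against 33.9% of all genes called (17.3% higher). Between 1 and 3 hr 6 passed (5 upwards, all genes 60.1% called and 28.0% higher), and between 3 and 6 hr 6 passed (5 downwards, all genes 63.7% called and 30.4% lower). From 6 to 9 hr 7 passed, 6 of them downwards (51.4% called, 27.9% lower). For 9 hr against untreated cells 6 of 8 passed (71.5% of all genes). The median change of the 8 was 0.42 in the first hour and 0.86 from 1 to 3 hr, then −0.39 and −0.54, beside medians of all genes between −0.05 and 0.02.

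**Figure D1:**
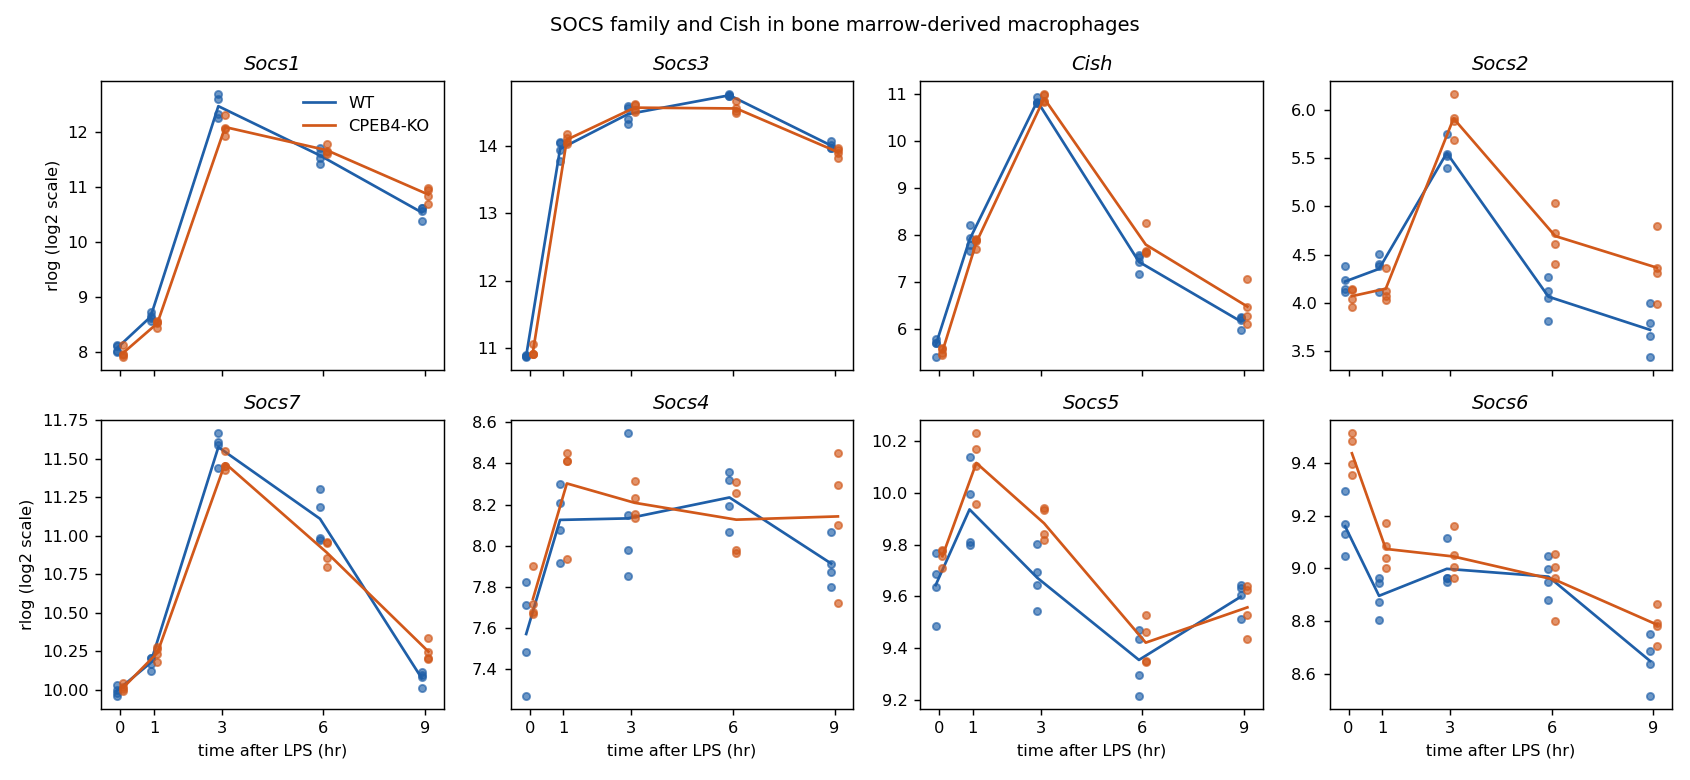
Level of each member (rlog, log2 scale) against the time after LPS in hr. Points are single mice, lines join the group means, blue is WT and orange is CPEB4-KO, and each panel has its own vertical range. *Socs1*, *Cish*, *Socs2* and *Socs7* peaked at 3 hr, *Socs3* stayed high from 1 hr on, and *Socs6* was highest in untreated cells.

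*Socs3* had the largest first-hour rise of the 8 members. In WT mice 25, 69, 87 and 88 it stood at 10.88, 10.88, 10.87 and 10.90 untreated and at 14.04, 14.05, 13.78 and 13.94 at 1 hr. Every mouse thus gained 2.91 to 3.17 log2 units within the hour (mean 3.07, SE 0.06, limma adjusted p = 3.24e-19). A slower rise to 14.47 ± 0.13 (SD, n = 4) at 3 hr and 14.75 ± 0.01 at 6 hr followed, and the level at 9 hr was still 3.12 above untreated cells. The step from 3 to 6 hr was 0.28 (SE 0.06, adjusted p = 3.51e-04) on the deposited scale and −0.02 (adjusted p = 0.813) after quantile normalization. Untreated cells held 6.86% of the 6 hr level after back-transformation and the 1 hr cells 57.7%.

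*Socs1* rose mainly between 1 and 3 hr. Its first-hour change in WT was 0.57 (SE 0.08, adjusted p = 1.49e-05), from 8.03, 8.01, 8.12 and 8.13 in mice 25, 69, 87 and 88 to 8.62, 8.57, 8.73 and 8.66. At 3 hr the same mice stood at 12.60, 12.32, 12.68 and 12.26, a further rise of 3.82 (SE 0.08, adjusted p = 2.71e-18). The level then fell by 0.89 to 6 hr and by 1.03 to 9 hr. At 9 hr 26.2% of the peak was left, against 4.72% in untreated cells.

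*Cish* gave the sharpest pulse. WT mice 25, 69, 87 and 88 rose from 5.80, 5.72, 5.42 and 5.71 untreated to 7.95, 8.22, 7.68 and 7.79 at 1 hr (mean change 2.25, SE 0.11, adjusted p = 1.09e-12). At 3 hr they stood at 10.84, 10.94, 10.83 and 10.83, another 2.95 higher. By 6 hr the values had fallen to 7.18, 7.58, 7.55 and 7.44 (change −3.42, SE 0.11, adjusted p = 2.35e-15). This is 9.4% of the 3 hr level, whereas *Socs1* kept 53.5% and *Socs7* kept 72.7% over the same 3 hr. At 9 hr *Cish* was at 3.9% of its peak and 0.51 above untreated cells (adjusted p = 3.83e-04).

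*Socs2* and *Socs7* also peaked at 3 hr, from very different baselines. *Socs2* was the lowest member throughout. WT mice 25, 69, 87 and 88 were at 4.15, 4.24, 4.38 and 4.11 untreated and at 5.52, 5.54, 5.75 and 5.40 at 3 hr, with the rise between 1 and 3 hr (1.20, SE 0.13, adjusted p = 1.10e-07). At 9 hr *Socs2* had fallen by 0.50 below untreated WT cells (adjusted p = 0.00203), or by 0.26 after quantile normalization, with an adjusted p of 0.0949. *Socs7* went from 10.03, 9.96, 10.00 and 9.98 untreated in the same mice to 11.61, 11.44, 11.59 and 11.67 at 3 hr, of which 1.40 came after the first hour (adjusted p = 1.03e-13). Its first-hour change of 0.18 (adjusted p = 0.0304) lost its call without any 1 of the WT mice and under quantile normalization. At 9 hr *Socs7* was back at 10.08, which was 0.08 from the untreated level (adjusted p = 0.245).

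The other members moved little. *Socs4* rose by 0.55 in the first hour (SE 0.13, adjusted p = 0.00250) from 7.57 ± 0.24 (SD, n = 4), and its means then lay between 7.91 and 8.23. *Socs5* rose by 0.29 in the first hour, to 9.94, and then fell by 0.26 to 3 hr and by 0.32 to 6 hr, where it had its lowest mean of 9.36. *Socs6*, on the opposite course, fell by 0.26 in the first hour (adjusted p = 0.00293) and by 0.32 between 6 and 9 hr, and ended 0.51 below the untreated level (8.65 against 9.16, adjusted p = 5.37e-07). All 4 WT mice were lower for *Socs6* at 9 hr than at 0 hr, with changes of −0.65 to −0.30.

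**Figure D2:**
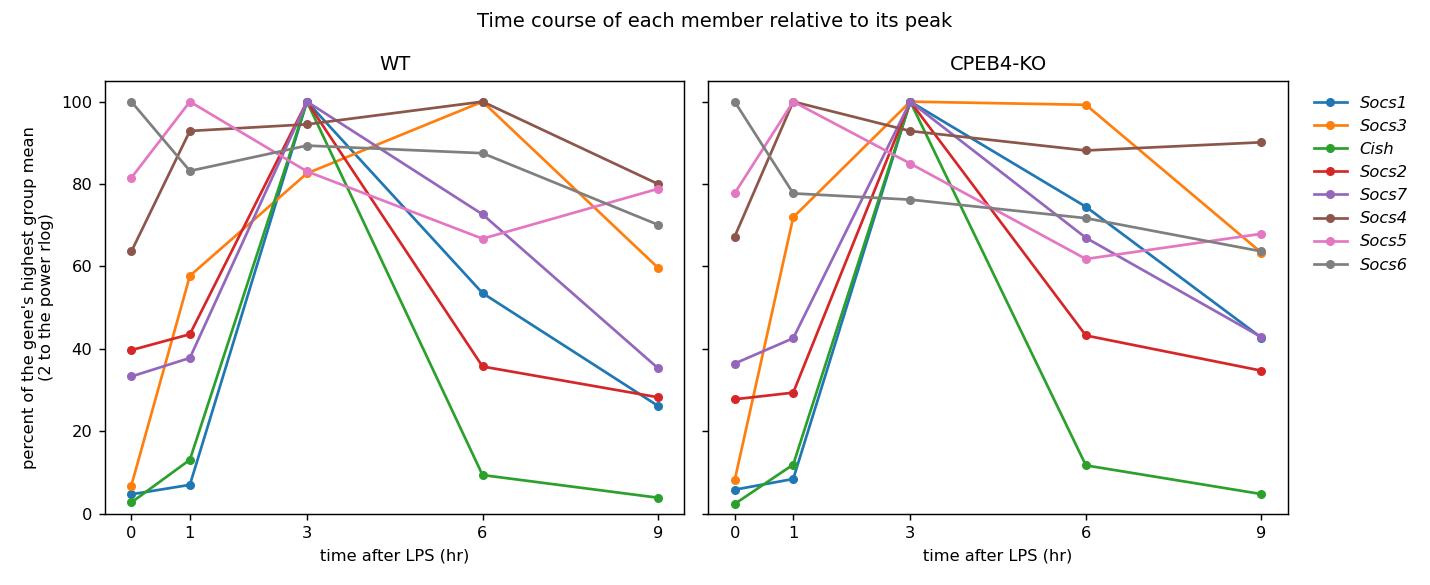
Time course of each member as percent of its highest group mean in that genotype, after raising 2 to the power of the rlog values of 4 mice and averaging them. *Cish* dropped to 9.4% of its peak at 6 hr in WT and 11.7% in KO, while *Socs3* stayed at 57.7% or more from 1 hr on in both genotypes.

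Levels of different genes were compared only per length, as the mean of 2 to the power rlog per kb of annotated exon (GENCODE vM21, all transcripts of a gene merged). In untreated WT cells *Socs3* led with 654 per kb, followed by *Socs7* (140), *Socs5* (125), *Socs1* (92.6), *Socs6* (50.5), *Socs4* (28.0), *Cish* (7.93) and *Socs2* (1.96). At 3 hr *Socs3* stood at 7872 per kb and *Socs1* at 1962. *Socs7* was at 421 and *Cish* had climbed to 289, ahead of *Socs5* (127), *Socs6* (45.1), *Socs4* (41.5) and *Socs2* (4.94). The merged length can exceed that of the transcripts a macrophage makes, so these values order the genes only roughly.

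In KO BMDMs the time tests called 7, 6, 5 and 5 members in the successive steps (all genes 43.8%, 64.0%, 64.4% and 53.6%). *Socs3* rose by 3.14, *Cish* by 2.32 and *Socs1* by 0.53 in the first hour, beside 3.07, 2.25 and 0.57 in WT. Between 3 and 6 hr the *Socs3* change in the KO was −0.01 (SE 0.05, adjusted p = 0.842) on the deposited scale and −0.25 (adjusted p = 5.23e-05) after quantile normalization. *Socs7* was 0.23 above its untreated level at 9 hr in the KO (SE 0.04, adjusted p = 7.11e-05), and was 1 of the 7 members called in the KO for 9 hr against 0 hr (all genes 72.8%). With each mouse as a block, *Socs2* was also called in the KO for 9 hr against 0 hr (0.29, adjusted p = 0.047), from 6 to 9 hr *Socs2* (−0.33, adjusted p = 0.0375) and *Socs5* (0.14, adjusted p = 0.0463) joined the KO calls, and *Socs4* joined the WT calls (−0.32, adjusted p = 0.0195).

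The comparison of genotypes at each time asks whether loss of CPEB4 altered the level of these inhibitors, and few of the 40 differences passed. At 0, 1 and 3 hr 0 of 8 members were called by limma, against 1.31%, 1.91% and 3.68% of all genes. Unadjusted p-values under 0.05 were found for 1, 1 and 3 members, against 17.6%, 35.3% and 23.4% of all genes. At 6 hr 2 of 8 were called, *Socs2* higher and *Socs3* lower in the KO, against 16.3% of all genes (6.4% higher and 9.92% lower). At 9 hr 1 of 8, *Socs1*, was called higher, against 7.91% of all genes (4.69% higher). The groups did not overlap for 2, 1, 1, 4 and 2 members at the 5 times, against 10.5%, 15.7%, 13.6%, 20.2% and 16.9% of all genes. At 6 and 9 hr the unadjusted p was under 0.05 for 4 and 3 members, against 30.3% and 26.9% of all genes. With 8 members, these counts are not far from the shares of all genes. Those shares rest on single mice too, since at 1 hr 251 genes were called with all mice, 40 without KO mouse 3 and 2440 without WT mouse 69. The median absolute difference of the 8 was 0.12, 0.16, 0.10, 0.15 and 0.20 at the 5 times, against 0.09, 0.16, 0.11, 0.10 and 0.12 over all genes.

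**Figure D3:**
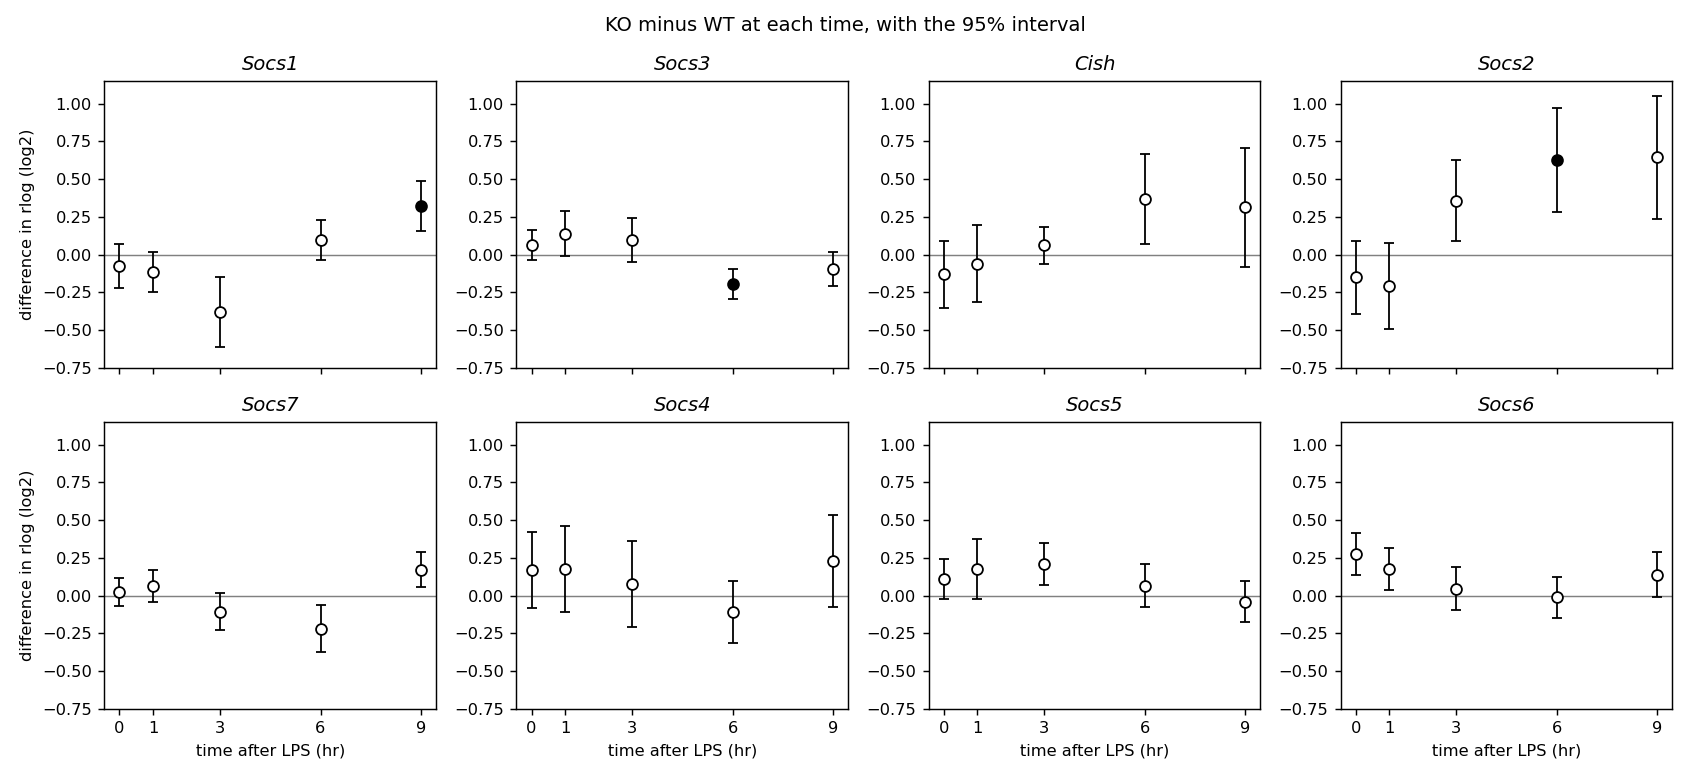
KO minus WT difference in rlog (log2) of each member against the time after LPS in hr, with the 95% interval of the limma fit at that time (4 against 4 libraries). Filled points have an adjusted p under 0.05, which are *Socs2* and *Socs3* at 6 hr and *Socs1* at 9 hr. The *Socs1* difference went from −0.38 at 3 hr to 0.32 at 9 hr.

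Summed macrophage markers were lower in the KO than in WT at each of the 5 times with no overlap of the groups, and the most abundant of them was *Lyz2*. On the log2 scale the sum ran from 18.97 to 19.18 in KO and from 19.30 to 19.37 in WT libraries at 6 hr, and from 18.98 to 19.18 and 19.25 to 19.32 at 9 hr. Of the 10 markers 1, 1, 2, 6 and 4 were called lower in the KO at 0, 1, 3, 6 and 9 hr, and 0 higher. Of all genes 1.31%, 1.91%, 3.68%, 16.3% and 7.91% were called in either direction, with 9.92% lower at 6 hr. The part of this difference in the results on SOCS genes was not tested. In these bulk samples fewer cells of a type and less RNA per cell cannot be told apart.

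*Socs1* at 9 hr stood at 10.56, 10.61, 10.61 and 10.38 in WT mice 25, 69, 87 and 88 and at 10.98, 10.94, 10.83 and 10.70 in KO mice 2, 3, 55 and 62. All 4 KO values lay above all 4 WT values. The difference was 0.32 (SE 0.08, 95% interval 0.16 to 0.49, adjusted p = 0.0282), or 1.25-fold, and was 0.35 in batch 1 and 0.29 in batch 2. Leaving out a mouse kept the direction, but the call was lost without any WT mouse and without KO mouse 3 or 55, with adjusted p-values up to 0.0793. At 3 hr, by contrast, WT mice 25, 69, 87 and 88 were at 12.60, 12.32, 12.68 and 12.26 and KO mice 2, 3, 55 and 62 at 11.93, 12.05, 12.30 and 12.07. Only KO mouse 55 reached into the WT range. The difference of −0.38 (SE 0.11, adjusted p = 0.0727) was −0.37 and −0.39 in the batches and missed the threshold in the fit of that time. It passed in 1 model of the 40 libraries with mice as a block (adjusted p = 0.00274), which called 1393 of 13103 genes at 3 hr.

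The change from 3 to 9 hr was 1 of the genotype by time interactions tested for all genes, and was chosen with earlier results of these data known. For *Socs1* its value is the 9 hr difference minus the 3 hr difference given above, so it is not separate evidence. Between 3 and 9 hr *Socs1* fell in every mouse, with changes of −2.07 to −1.71 in WT and of −1.47 to −0.95 in KO. The mean changes were −1.93 ± 0.17 and −1.22 ± 0.24 (SD, n = 4). The KO to WT difference thus moved by 0.70 (SE 0.11, 95% interval 0.47 to 0.93, limma adjusted p = 2.40e-04), and stayed called in all 15 alternative fits, with values from 0.61 to 0.78 and adjusted p-values from 9.00e-05 to 0.00457. At 9 hr 42.7% of the 3 hr level was left in KO cells and 26.2% in WT cells. *Socs7* was the only other member called, with a movement of 0.28 (SE 0.08, adjusted p = 0.0287). Its changes were −1.58 to −1.36 in WT and −1.34 to −1.09 in KO mice. The *Socs7* call was lost without KO mouse 2, 3 or 62 or WT mouse 25 or 87. For this interaction 4.14% of all genes were called (2.28% above 0), and an unadjusted p under 0.05 was found for 4 members and 16.1% of genes.

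**Figure D4:**
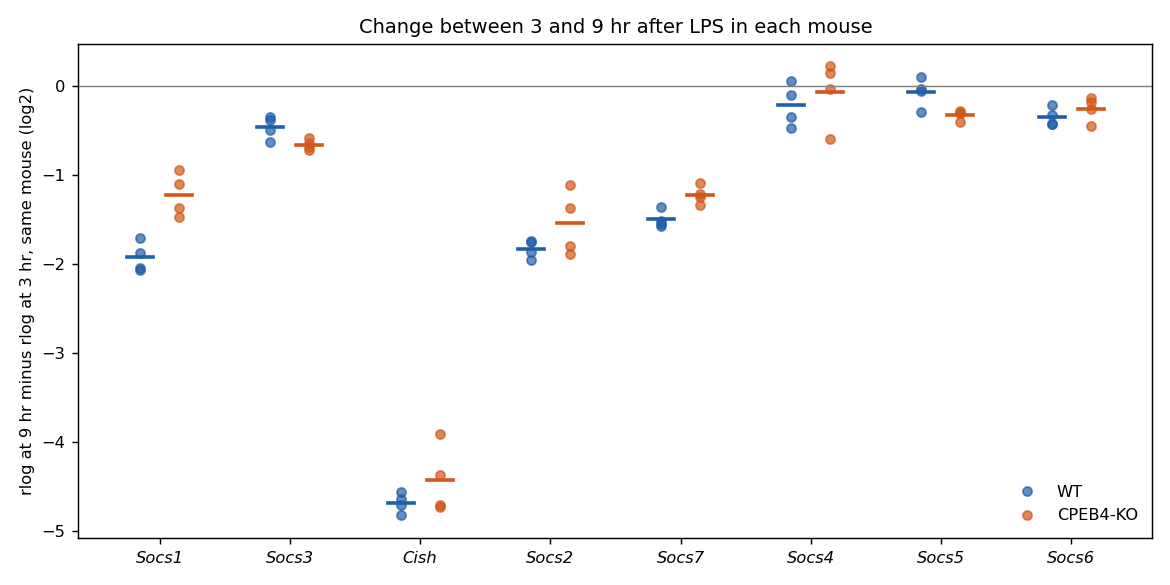
Change in rlog between 3 and 9 hr after LPS within each mouse (log2), by member and genotype, with a bar at each mean of 4 mice. The *Socs1* points of WT (blue) and KO (orange) do not overlap, with means of −1.93 and −1.22. Those of *Socs7* do not overlap either, at −1.50 and −1.22. How many of all genes separate in this way was not counted, so no share stands beside these members.

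*Socs7* itself crossed between 6 and 9 hr. At 6 hr WT mice 25, 69, 87 and 88 stood at 10.98, 11.18, 10.97 and 11.30 and KO mice 2, 3, 55 and 62 at 10.85, 10.96, 10.96 and 10.80. At 9 hr the same mice stood at 10.10, 10.08, 10.01 and 10.12 against 10.20, 10.34, 10.21 and 10.24. KO values were thus all lower at 6 hr and all higher at 9 hr. The differences of −0.22 (SE 0.07, adjusted p = 0.056) and 0.17 (SE 0.05, adjusted p = 0.0654) both missed the threshold. Both passed it in the model of 40 libraries with that block (adjusted p = 0.00519 and 0.0278). Of 13103 genes that model called 2137 at 6 hr and 2378 at 9 hr.

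*Socs3* at 6 hr was tightly held in WT mice 25, 69, 87 and 88, at 14.74, 14.73, 14.77 and 14.76, and lower in KO mice 2, 3, 55 and 62, at 14.51, 14.56, 14.66 and 14.48. The groups did not overlap. The difference was small, −0.20 (SE 0.05, 95% interval −0.30 to −0.10, adjusted p = 0.0139), with −0.23 and −0.16 in the batches. After quantile normalization it was −0.06 (adjusted p = 0.299), and the call was also lost without KO mouse 2. At the other times the differences lay between −0.10 and 0.14 with no call. The 0.14 at 1 hr (adjusted p = 0.167) was called, though, in the model of 40 libraries with the mouse block (adjusted p = 0.0477). At 1 hr that model called 4323 of 13103 genes, against 251 of 13118 in the fit of that time. The interaction of 6 hr against 0 hr was −0.26 (adjusted p = 0.0539), and −0.26 with the mouse as a block (adjusted p = 0.0143).

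*Socs2* showed the widest genotype gap on the log2 scale. At 6 hr WT mice 25, 69, 87 and 88 were at 4.05, 3.82, 4.27 and 4.12 and KO mice 2, 3, 55 and 62 at 4.60, 5.04, 4.73 and 4.40, all above WT. The difference was 0.63 (SE 0.16, adjusted p = 0.0182), or 1.55-fold, and was the same in both batches (0.63 and 0.62). At 9 hr the values were 3.65, 3.79, 3.99 and 3.44 against 4.36, 4.80, 3.99 and 4.31, with KO mouse 55 inside the WT range. The difference of 0.64 (adjusted p = 0.0578, and 0.00105 in the model of 40 libraries with the mouse block) was 1.01 in batch 1 and 0.28 in batch 2. That model called 2378 of 13103 genes at 9 hr. Before LPS and at 1 hr the KO means were instead 0.15 and 0.21 below WT without a call. Against untreated cells the KO to WT difference moved by 0.78 at 6 hr (adjusted p = 0.0273) and 0.80 at 9 hr (adjusted p = 0.0300), where *Socs2* was the 1 member called and 2.94% and 1.76% of all genes were. Unadjusted p-values under 0.05 were found there for 5 and 4 members, against 15.1% and 12.0% of genes. For 1 and 3 hr against 0 hr limma called 0 members, with 0 and 3 at an unadjusted p under 0.05, where 0.00763% and 0.206% of all genes were called and 1.57% and 5.03% had such a p. In WT, *Socs2* at 9 hr was below its untreated level in each mouse (changes of −0.67 to −0.39), and in the KO above it in each mouse (0.03 to 0.66). Without KO mouse 3 the 6 hr difference was no longer called, nor without WT mouse 69, and the interaction calls were each lost in 6 of the 8 omissions of a mouse. The call for 9 hr was also lost after quantile normalization (0.72, adjusted p = 0.0539).

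*Cish* did not pass a genotype test at any time. Its KO values at 6 hr, 7.63, 8.26, 7.68 and 7.66 in mice 2, 3, 55 and 62, were all above the WT values of 7.18, 7.58, 7.55 and 7.44. KO mouse 3 stood apart from its group. The difference of 0.37 (SE 0.14, adjusted p = 0.0893) was 0.65 in batch 1, which holds that mouse, and 0.09 in batch 2. At 9 hr KO mice 2, 3, 55 and 62 were at 6.47, 7.07, 6.28 and 6.12, against 6.20, 6.24, 6.26 and 6.00 in WT, and KO mouse 3 was again the highest.

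*Socs6* and *Socs5* had their widest genotype gaps at 0 and 3 hr, without a call in the fits of single times. Untreated *Socs6* was at 9.17, 9.13, 9.05 and 9.29 in WT mice 25, 69, 87 and 88 and at 9.51, 9.48, 9.35 and 9.40 in KO mice 2, 3, 55 and 62. The KO values were all higher, by a mean of 0.28 (SE 0.06, adjusted p = 0.0637). The gap was 0.18 at 1 hr (adjusted p = 0.0979). In the model of 40 libraries with the mouse block *Socs6* was called at both times (adjusted p = 0.00507 and 0.0255). Of 13103 genes that model called 414 at 0 hr and 4323 at 1 hr. The gap was −0.01 at 6 hr, and between 0 and 6 hr *Socs6* changed by −0.60 to −0.35 in KO and by −0.29 to −0.10 in WT mice. That interaction was −0.29 (adjusted p = 0.058), and was called with the mouse as a block (adjusted p = 0.0136), as was that of *Socs7* (−0.24, adjusted p = 0.0349). In the same block fit of 9 hr against 0 hr *Socs1* joined *Socs2* with 0.40 (adjusted p = 0.0238, 0.0606 without the block). *Socs5* was higher in the KO at 3 hr, at 9.82 to 9.94 against 9.55 to 9.80 (difference 0.21, adjusted p = 0.0894). *Socs4* varied most between mice relative to its range, with SDs up to 0.31, and its differences lay between −0.11 and 0.23 with 95% intervals that all include 0.

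The order of the 10 group means differed by member. For *Socs1* it ran from WT and KO at 3 hr through KO and WT at 6 hr, KO at 9 hr, WT at 9 hr and WT and KO at 1 hr down to the untreated groups. Ranges overlapped within the genotype pairs at 3, 6, 1 and 0 hr, and the neighbours at 9 hr did not overlap. For *Cish* both 3 hr groups came first with overlapping ranges, then both 1 hr groups and KO at 6 hr, which overlapped, then WT at 6 hr on its own, the 9 hr groups and the untreated groups. For *Socs3* WT at 6 hr came first and apart. For *Socs2* all groups below the 3 hr pair overlapped their neighbours, and for *Socs4* every group overlapped the next.

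The genes most like each member over the 10 group means, among 12951 named genes, are given as a description, since these means share libraries and genotype pairs. *Cish* was closest to *Dirc2* (Pearson's r = 0.999), *Nmd3* (0.990) and *Nipal1* (0.990). *Socs1* was closest to *Rnf145*, *Sh3bp4* and *Mx2*, an interferon-induced GTPase, all at r of 0.994 to 0.995. *Socs3* was closest to *Traf1*, *Plek* and *Cflar*, at r of 0.994 to 0.996, of which *Traf1* and *Cflar* are known NF-kB targets. *Socs7* followed *Nxf1*, *Dr1* and *Pikfyve* (0.992 to 0.995). The likeness was weaker for *Socs2* (*Cd160*, *Adgrl2* and *Nle1*, 0.952 to 0.967), *Socs4* (*Traf6*, *Chd2* and *4930487H11Rik*, 0.951 to 0.961), *Socs5* (*Eri1*, *Cebpz* and *Atxn3*, 0.964 to 0.970) and *Socs6* (*Nemp1*, *Cep295nl* and *Trove2*, 0.930 to 0.958). Among the members themselves the highest value was 0.901, for *Socs3* with *Socs4*, and *Socs2* with *Cish* came to 0.897.

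Ligands, receptors and signalling parts of the pathways that SOCS proteins restrain moved as well, as did other inhibitors and SOCS box partners. Of the ligand list 10 of 14 genes were tested, and in WT 10 of 10 rose in the first hour (17.3% of all genes were called higher), led by *Csf2* (from 3.54 to 9.35), *Ifnb1* (from 3.64 to 8.34) and *Lif* (from 2.26 to 6.17), which encode GM-CSF, interferon beta and the IL-6 family cytokine LIF. The filter took the mean over all times, so a ligand could enter through its level after LPS, and ligands that stayed low were left out. In the untreated libraries alone 9 passed it. The ligand count of the first hour is thus partly set by the filter, and the share of all genes does not correct for this. Of 11 JAK and STAT genes 4 rose and 2 fell in that hour, and 10 rose between 1 and 3 hr (28.0% of all genes called higher and 60.1% in either direction), led by *Stat5a* (by 2.41), *Jak2* (by 2.37) and *Stat2* (by 2.00). Of 19 receptors tested 10 rose and 7 fell in the step from 1 to 3 hr, with *Il4ra*, the IL-4 receptor alpha chain, up by 2.47. Of 10 other JAK-STAT inhibitors 6 rose and 3 fell, with *Usp18*, an inhibitor of interferon receptor signalling, up by 2.77. Of the 7 partners of the SOCS box 3 rose and 1 fell, with the cullin *Cul2* up by 0.72 and *Arih2* down by −0.62.

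Between genotypes at 6 hr 16.3% of all genes were called, 6.4% higher and 9.92% lower in the KO. Of 11 JAK and STAT genes 4 were lower and 0 higher, the lower ones including *Tyk2* (12.11 against 12.51, adjusted p = 0.00144), *Stat4* (5.88 against 6.33) and *Stat3* (13.97 against 14.18). The list's median difference was −0.11, beside −0.02 over all genes. Of the ligands 3 were higher and 3 lower: *Il10* was lower by 0.78 (10.45 against 11.24, SE 0.08, adjusted p = 1.16e-04) and *Il27* by 0.51 (11.78 against 12.30), and *Il6* was higher by 0.48 (12.95 against 12.46, adjusted p = 0.0206). Of 18 receptors 3 were higher, with *Csf2rb* and *Csf2rb2*, beta chains of the GM-CSF receptor family, up by 0.28 and 0.27, and 2 were lower, with *Il4ra* down by −0.48. Of the other inhibitors *Usp18* (−0.45) and *Ptpn1* (−0.30), a phosphatase that acts on JAKs, were lower and 0 were higher. At 3 hr, where 3.68% of all genes were called, 2 of 10 ligands were higher and 1 was lower. *Csf2* was higher by 0.87 (adjusted p = 0.0126) and *Osm* by 0.37 (adjusted p = 0.0372), and *Ifnb1* was lower, by −0.66 (adjusted p = 0.0306). Whether these ligands bear on the SOCS genes was not tested. Of the JAK and STAT genes 1 was higher (*Stat5a*) and 1 lower (*Stat4*) at that time. At 9 hr, where 7.91% of all genes were called, 0 of 11 JAK and STAT genes and 0 of 10 ligands were called. The JAK and STAT median difference was then 0.07, beside 0.004 over all genes. Of 18 receptors 1 was higher and 2 were lower at 9 hr, and of 10 other inhibitors 3 were lower and 0 higher. Limma called 0 of the 7 SOCS box partners at each of the 5 times, with 0, 5, 0, 2 and 1 of them at an unadjusted p under 0.05, against 17.6%, 35.3%, 23.4%, 30.3% and 26.9% of all genes.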

How the data were processed

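The authors sequenced poly(A) RNA libraries, aligned the reads with STAR 2.3.0e to mm10, counted reads per gene with featureCounts and deposited the rlog values of DESeq2, on a log2 scale. Counts and the depth per library were not used here, and no counting interval is given. The paper lists alignment statistics in its supplement. Groups, mice, batches and cages came from the labels, and 0 columns of values were left unused.

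Genes whose average level in a fit's libraries reached that of 5 reads (log2 scale) were tested with limma 3.58.1 (R 4.3.3, eBayes with trend, two-sided, Benjamini-Hochberg over all genes tested, calls at an adjusted p under 0.05). Genotypes were compared at each time (8 libraries), times within a genotype (20 libraries) and their interaction over 40 libraries. The study's own tests used counts. Scripts were tested on simulated data.

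Named genes were the 8 members, the 3 genes most correlated with each, up to 3 called genes of largest difference per pathway list, and *Cpeb4*. Members and lists were chosen with earlier results of these data known. Alternatives were no filter, a mean rlog of at least 5, quantile normalization, robust or untrended eBayes, batch as a covariate, 1 model of all libraries, a replicate block (the mouse) and leaving out each mouse. Each mouse gave all 5 times, so the mouse pairs the times. Deviations from the group means of the same mouse correlated with a median of 0.29 (68 of 80 pairs over 0.1), against −0.09 between mice. Genotypes share no mouse.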

Additional observations from a re-analysis of the deposited data

Results flagged for a closer look

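In 5 of the 80 groups of 4 mice 1 value stood farther from the others than Dixon's limit for groups of 4 allows, and chance gives about 1 in 20 groups. *Socs3* in untreated cells of KO mouse 3 was 11.06, with 10.91 in the others. *Socs4* at 1 hr in KO mouse 2 was 7.94, with 8.41 to 8.45 in the others. *Socs6* at 3 hr in WT mouse 88 was 9.12, with 8.95 to 8.96 in the others. *Cish* at 3 hr in WT mouse 69 was 10.94, with 10.83 to 10.84 in the others, and at 6 hr in KO mouse 3 it was 8.26, with 7.63 to 7.68 in the others.

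The response to LPS differed between the genotypes, by the interaction test, in 4 cases. The KO minus WT difference of *Socs2* moved by 0.78 from 0 to 6 hr and by 0.8 from 0 to 9 hr. That of *Socs1* moved by 0.7 from 3 to 9 hr and that of *Socs7* by 0.28. The *Socs2* calls were lost in 6 (6 hr) and 7 (9 hr) of 14 alternative fits and the *Socs7* call in 5 of 15, while the *Socs1* call was kept in all 15.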

How the results depend on the processing

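The interaction of *Socs1* between 3 and 9 hr kept its call in all 15 alternatives, while every genotype call at a single time was lost in at least 1. In 1 model of all 40 libraries, with or without a replicate block for the mouse, the members called at 0, 1, 3, 6 and 9 hr were 1, 2, 1, 3 and 3. Of all 13103 genes that model called 326, 4182, 1311, 2039 and 2280 without the block. With the block it called 414, 4323, 1393, 2137 and 2378. At 6 hr 1 member was called with a mean rlog of at least 5, with no filter and after quantile normalization. Of all genes 2159 of 10909, 1288 of 20784 and 2021 of 13039 were called in those fits. At 9 hr 2 members were called with batch as a covariate, 0 without the eBayes trend and 0 with no filter. Of all genes 1781 of 13008, 700 of 13008 and 582 of 20784 were called there. For the interaction of 6 hr against 0 hr, 2 members were called with batch as a covariate, 2 after quantile normalization and 4 with the replicate block. These fits called 448, 227 and 1032 of 13103 genes. For 9 hr against 0 hr, 0 members were called with a mean rlog of at least 5, which drops *Socs2*, and 2 with the replicate block. After quantile normalization *Socs1* was called in place of *Socs2*. Of all genes these fits called 236 of 11021, 654 of 13103 and 213 of 13103.

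Leaving out a mouse gave 0 to 2 members called at 3 hr (2 without WT mouse 88), 1 to 3 at 6 hr and 0 to 4 at 9 hr (4 without KO mouse 2). The calls over all genes rose in the same fits. They were 2584 of 13079 genes at 3 hr without WT mouse 88, against 481 of 13083 with all mice. At 9 hr they were 4575 of 13005 without KO mouse 2, against 1029 of 13008. The interaction counts of members were 0 to 1 for 6 hr, 0 to 2 for 9 hr and 1 to 2 for 9 against 3 hr. Members called over time stayed within 1.5 times the main count. Of the values of single members 1022 kept direction and side of the threshold, 52 lost a call, 50 gained one (*Socs3* in the KO from 3 to 6 hr after quantile normalization, −0.25, among them) and 4 turned direction. These were *Socs4* in the KO from 1 to 3 hr (0.011) and *Socs3* in WT from 3 to 6 hr (−0.018) after quantile normalization, and *Socs3* in the KO from 3 to 6 hr, which ran from −0.058 to 0.026 when a mouse was left out. The cause was not tested.

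Counts over all genes moved too. At 0, 1, 3 and 9 hr 171, 251, 481 and 1029 genes were called, against 326, 4182, 1311 and 2280 in 1 model of all libraries and 414, 4323, 1393 and 2378 with the replicate block. Without 1 mouse these counts ran from 44 to 163 at 0 hr, 40 to 2440 at 1 hr (without KO mouse 3 and WT mouse 69), 76 to 2584 at 3 hr (without KO mouse 3 and WT mouse 88) and 387 to 4575 at 9 hr (without WT mouse 25 and KO mouse 2). At 6 hr they ran from 1347 to 2331, and for the interactions of 6 and 9 hr against 0 hr and 9 against 3 hr from 84 to 391, 89 to 226 and 232 to 436. With no filter 1288 were called at 6 hr, against 2129. The replicate block raised the interaction counts from 385 to 1032, 231 to 654 and 543 to 1071 for 6 and 9 hr against 0 hr and 9 against 3 hr.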
